A study of Mus musculus with 2 samples.

Results

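Igf2, Grb10, Phlda2 and Snrpn are imprinted genes, of which Igf2 and Grb10 were far dimmer and Phlda2 and Snrpn far brighter in stem cells generated with a small molecule, called generated stem cells here, than in the mouse cells they came from, the parental cells. The 4 genes were chosen by name, and with their difference between these 2 samples in view, from 11484 genes with a symbol on a 1-colour oligonucleotide array. The values that chose them are therefore given as a description. Each of the 4 was read by 1 probe, and all 4 were found. Both samples are labelled as embryonic and of strain C57/ICR. The parental cells were at passage 1 in FBS medium, and the generated stem cells were at passage 5 in ES medium. The treatment thus cannot be told apart from passage and medium. The labels name neither the compound nor the cell type of the parental culture, and the design text sets PEG cells against parental cells. PEG cells are taken here to be the generated stem cells. The design text of the series mentions 3 replicates, but 1 column of intensities per sample was analysed, so no test between the samples was possible and no value has a replicate error. It was not settled if an intensity comes from 1 array or averages several.

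An imprinted gene is transcribed mainly from the copy inherited from one parent, under the direction of a control region whose DNA is methylated on one of the copies. Many imprinted genes regulate fetal and placental growth. Igf2, expressed from the paternal copy, encodes insulin-like growth factor II, which drives growth through the IGF1 and insulin receptors. Grb10 and Phlda2, expressed from the maternal copy, restrain it. GRB10 is an adaptor that binds those receptors and dampens their signal (in neurons its paternal copy is used instead), and PHLDA2 is a small pleckstrin homology domain protein that limits growth of the placenta. Snrpn, expressed from the paternal copy, encodes SmN, a core protein of the splicing machinery, and its promoter lies in the control region of the Prader-Willi/Angelman domain. It is grouped with growth genes by its imprinting and not by a growth factor role.

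The promoters of the members are shown with their CpG sites, where DNA can be methylated, in capitals. A promoter printed here is not thereby an imprinting control region. Each sequence runs 5′ to 3′ on the strand of the gene, from 250 bases before to 50 bases after a RefSeq transcription start (build GRCm38.p6). RefSeq lists 4 such starts for Igf2, 2 for Grb10, 1 for Phlda2 and 4 for Snrpn, and the one with most CpG sites is printed. All lie on the minus strand: Igf2 at chr7:142658755-142659054, Grb10 at chr11:12037371-12037670, Phlda2 at chr7:143502475-143502774 and Snrpn at chr7:60005150-60005449.
Igf2: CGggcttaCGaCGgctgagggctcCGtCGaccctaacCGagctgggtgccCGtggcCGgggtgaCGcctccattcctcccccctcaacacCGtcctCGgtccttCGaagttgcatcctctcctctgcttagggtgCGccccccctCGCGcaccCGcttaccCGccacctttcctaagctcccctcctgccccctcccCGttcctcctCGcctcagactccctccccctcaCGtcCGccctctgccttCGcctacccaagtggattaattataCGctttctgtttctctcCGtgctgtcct
Grb10: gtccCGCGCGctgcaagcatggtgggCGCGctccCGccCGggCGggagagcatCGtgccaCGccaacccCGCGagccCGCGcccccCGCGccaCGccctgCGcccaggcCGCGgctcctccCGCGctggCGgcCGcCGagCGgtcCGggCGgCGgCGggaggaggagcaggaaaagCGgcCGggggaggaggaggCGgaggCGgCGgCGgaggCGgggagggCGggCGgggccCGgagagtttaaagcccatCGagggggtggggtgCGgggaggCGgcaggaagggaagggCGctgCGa
Phlda2: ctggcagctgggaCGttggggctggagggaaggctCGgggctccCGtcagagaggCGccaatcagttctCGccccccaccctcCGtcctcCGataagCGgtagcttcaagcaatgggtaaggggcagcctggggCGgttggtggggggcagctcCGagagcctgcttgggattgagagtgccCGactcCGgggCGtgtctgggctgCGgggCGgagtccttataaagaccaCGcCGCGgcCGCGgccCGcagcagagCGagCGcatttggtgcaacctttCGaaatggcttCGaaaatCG
Snrpn: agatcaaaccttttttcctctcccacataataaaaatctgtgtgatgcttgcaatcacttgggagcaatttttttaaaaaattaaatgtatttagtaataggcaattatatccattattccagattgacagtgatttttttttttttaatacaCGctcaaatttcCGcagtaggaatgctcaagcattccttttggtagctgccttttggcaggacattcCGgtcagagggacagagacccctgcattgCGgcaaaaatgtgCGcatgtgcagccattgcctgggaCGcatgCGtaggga

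The printed Grb10 promoter held 45 CpG sites, more than 98.1% of 32851 promoters of this length in the table. That of Phlda2 held 26 (above 83.1%), that of Igf2 24 (above 80%) and that of Snrpn 7, which is also the median of all promoters. The printed starts thus shared no common CpG density. Except at Phlda2, which has 1 start, the printed start was picked for most CpG sites, while the promoters it is set against were not picked. The Grb10 start not printed held 9 CpG sites (above 54.2%). Those of Igf2 held 2, 14 and 7, and those of Snrpn 2, 3 and 4. On either strand, the GC box GGGCGG was matched 5 times at Grb10, 2 times at Phlda2 and 1 time at Igf2 and was in 35.7% of all promoters. TGCCGC, the hexamer that the imprint protector ZFP57 binds when methylated, was matched 1 time each at the printed Grb10 and Snrpn starts (11.6% of all promoters) and 1 time at another Igf2 start. TATAAA (13.6%) and CCAAT (37.4%) were matched 1 time each at Phlda2. At starts not printed, GGGCGG was matched 2 times and CCAAT 1 time at Igf2, and CCAAT 2 times and TATAAA 1 time at Snrpn. GCATGCG, a core of the NRF1 motif, was matched 2 times in all 4 promoters of Snrpn and in 3.58% of all promoters. In each Snrpn promoter the 2 matches overlap as 1 palindromic site read on both strands, and the Snrpn starts resemble each other in sequence. Overlaps between different motifs were not removed. The array did not read which start was used, methylation or allele.

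Intensities are the authors' normalised values on a linear scale without unit. Parental values ran from 15 to 65495 and those of the generated stem cells from 16 to 65494, with medians of 304 and 305. Pairs of intensities below name the parental cells first. The 25th percentile of each column, 93.8 and 93.4, served as the floor: a gene that did not exceed it in either sample is called dim and has no fold. Where only 1 of the values exceeded it, the fold is a lower bound, written "at least". A gene was called higher or lower at 2-fold or more, after values under the floor were raised to it. Among 9766 genes that were not dim, 20.5% were higher by that rule in the generated stem cells and 20.8% lower, and the median log2 difference (generated minus parental) was 0.10. Where a gene had 2 probes above the floor (601 genes), the log2 difference of 1 probe varied around its gene with an SD of 1.05, equal to 2.08-fold. That error covers probes on the same arrays and not cultures. In bulk RNA, fewer cells of a type and less RNA per cell cannot be told apart.

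The labels were checked against markers. Of 7 measured ES cell markers 6 (85.7%) were higher in the generated stem cells and none was lower, beside 20.5% and 20.8% of all genes. Nanog, the exception, was at 77.7 and 94.7. The intensities of the 7 summed to 683 and 90847. Such sums are led by the brightest probes, here those of Esrrb, Utf1, Fgf4 and Sox2, while Pou5f1 was at 37.8 and 639. Of 10 mesenchyme markers 2 were measured, Thy1 and S100a4, both lower, which summed to 72521 and 319. Mesenchyme markers thus moved with Igf2 and Grb10, and ES cell markers with Phlda2 and Snrpn, and their part in these differences was not tested. Of 11 trophoblast markers only 2 were measured, Hand1 (415 and 910) and Krt8 (210 and 2711), and both were higher. Of 8 neuronal markers 7 were not dim. Of these 3 (42.9%), Stmn2, Snap25 and Nefl, were higher and 1 (14.3%) was lower, beside 20.5% and 20.8% of all genes. Hand1 and Snap25 were under 2-fold after intensity-dependent centring. The neuronal marker Map2 was 4.15-fold lower (395 and 95.3). Trophoblast and neuronal markers stand beside Phlda2, a placental gene, and Snrpn, a neuronal one, and their part was not tested. The trophoblast markers summed to 625 and 3621 and the neuronal ones to 1866 and 4951. Rbfox3 was dim in both samples, and Tubb3 was at 663 and 745. Of 5 extraembryonic endoderm markers 3 were not dim (Sox17 and Apoa1 were dim). Of these 1 (33.3%) was higher (Amn, under 2-fold after intensity-dependent centring) and 1 (33.3%) lower (sums 2406 and 1335). Muscle markers held 1 of 3 (33.3%) higher and none lower (502 and 934). Macrophage markers held 1 of 6 (16.7%) higher and 3 (50%) lower (7496 and 13142). These shares too stand beside 20.5% and 20.8% of all genes. Among macrophage markers Laptm5 alone was at 1287 and 12204, while C1qa was at 3198 and 35.7.

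Igf2, the growth factor, had an intensity of 47590 in the parental sample and of 491 in the generated stem cells. The parental value was below the ceiling of a 16-bit scanner (65535), but a normalised value cannot show if the raw signal was saturated. The value in the generated stem cells was 5.26 times the floor. The log2 difference was -6.60, a 96.9-fold lower value, which ranked 16 from the lowest among 9766 genes. Grb10 was at 33371 and 1340. It was 24.9-fold lower (log2 difference -4.64, rank 109 from the lowest) but still at 14.3 times the floor. Both genes thus had most of their signal in the parental cells and a measurable one in the generated stem cells.

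Phlda2 had a parental intensity of 81.7, which is under the floor, and reached 1083 in the generated stem cells. It was at least 11.5-fold higher (log2 difference 3.73 as measured and 3.53 from the floor). It ranked 142 from the highest. Snrpn was at 384 and 3516, a 9.16-fold higher value (log2 difference 3.20, rank 185 from the highest). Only Phlda2 was thus without a measurable parental level, whereas Snrpn was at 4.09 times the floor there. The paternally expressed pair, Igf2 and Snrpn, and the maternally expressed pair, Grb10 and Phlda2, each held 1 lower and 1 higher gene. As the 4 genes were chosen with their difference in view, this split says nothing about expressed copies in general.

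**Figure D1:**
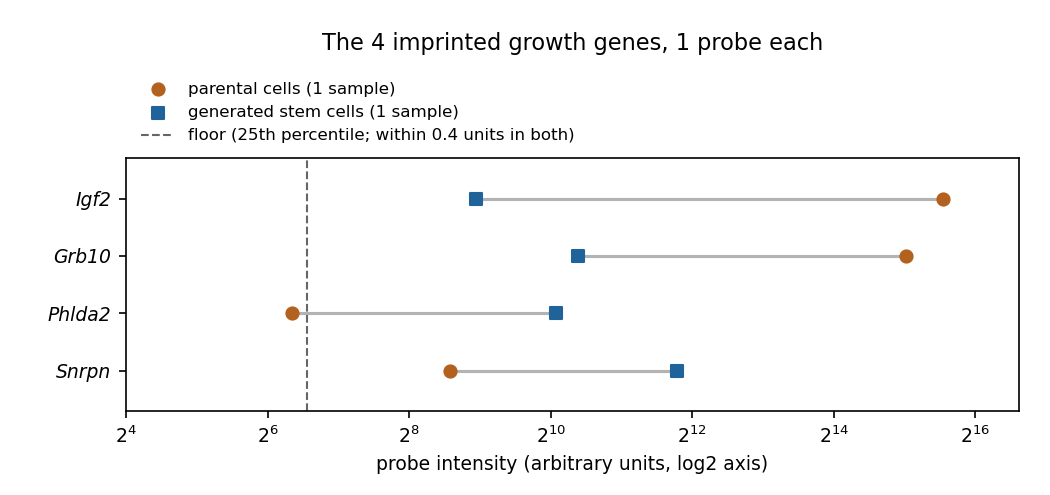
Probe intensity (log2 axis, arbitrary units) of Igf2, Grb10, Phlda2 and Snrpn in the parental cells (circles) and the generated stem cells (squares), 1 sample and 1 probe each, with the floor as a dashed line. Igf2 and Grb10 lie to the right in the parental cells, at 47590 and 33371, and Phlda2 and Snrpn in the generated stem cells, with the parental value of Phlda2 (81.7) left of the floor. Levels can be compared only within a gene, since probes differ in brightness.

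The genes whose pair of intensities was most like each member were found by Euclidean distance in log2 intensity over the 2 samples. Nearest to Igf2 were Bgn, which encodes the matrix proteoglycan biglycan (39481 and 477, distance 0.27), and the collagen chain genes Col6a1 (0.76) and Col4a1 (0.85). Nearest to Grb10 were Col4a2, another collagen chain (31783 and 1483, distance 0.16), Serpinf1, a secreted serpin (0.32), and Serpinh1, the collagen chaperone (0.33). All 6 were bright in the parental cells, which follows from their choice by nearness to Igf2 and Grb10. Phlda2 had as its nearest genes the keratin gene Krt17 (79.7 and 1217, distance 0.17), the collagen gene Col9a2 (0.21) and Icosl, a ligand of T cell costimulation (0.21), and Snrpn had Tonsl, a DNA repair gene (435 and 3598, 0.18), Ano9, of the anoctamin family (0.30), and Nfkbid, a regulator of NF-kappaB (0.31). With 2 samples such likeness rests on 2 numbers per gene and on probe brightness.

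The members sit in imprinted domains, groups of neighbouring genes under a shared control region, and each is described here through all its measured genes. Of the 18 measured domain genes other than the 4 members, 2 (11.1%) were higher and 5 (27.8%) lower, beside 20.5% and 20.8% of all genes, with a median log2 difference of -0.31 against 0.10 for all genes. With the members counted, 3 of the 4 domains held both higher and lower genes. Without the members, which were chosen with their difference in view, only the Kcnq1 domain did.

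In the Igf2 domain, both reciprocally imprinted genes were lower. H19, a noncoding RNA made from the maternal copy that shares enhancers with Igf2, was at 46862 and 2059, 22.8-fold lower. Its paternal counterpart Igf2 was 96.9-fold lower, so the pair moved the same way. The copy used for either gene in these cells was not read. Ins2, the insulin gene next to Igf2, was near the floor at 103 and 122. The nearest measured genes in RefSeq chromosome order also stayed under 2-fold: Mir483, whose miRNA lies in an Igf2 intron, was at 130 and 136, and Igf2os, the antisense transcript, at 169 and 177. On the side of H19, Nctc1 was at 115 and 133 and the troponin gene Tnnt3 at 117 and 146. All 5 of these genes were close to the floor in the parental cells, which left little room below.

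The Kcnq1 domain holds Phlda2 and is silenced on the paternal copy through the noncoding RNA Kcnq1ot1, which was not analysed here. Cdkn1c, the next growth restrainer of the same domain and the same maternal copy, encodes a cyclin-dependent kinase inhibitor. It was at 8636 and 564, 15.3-fold lower, opposite to Phlda2. Osbpl5, an oxysterol binding protein gene, was far lower (3205 and 133, log2 difference -4.59). Ascl2, a transcription factor of the trophoblast, was at 39.7 and 336, at least 3.58-fold higher, the same way as Phlda2. Of the 9 measured genes of the domain 2 were thus higher and 2 lower (22.2% each, near the shares of all genes), and 5 differed by less than 2-fold. Slc22a18, a transporter gene directly beside Phlda2, was at 124 and 110, and Nap1l4, a histone chaperone gene on the other side, at 14547 and 20279. Tssc4 (4470 and 3209), Tspan32 (153 and 267) and Tnfrsf23 (2223 and 1624) also stayed under 2-fold. Beyond the list, the neighbour Cars, a cysteinyl-tRNA synthetase gene, was 2.26-fold higher (1291 and 2922), and Trpm5 was dim in both samples.

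In the Snrpn domain, Snrpn was higher while the paternally expressed Ndn and Peg12 were lower. Ndn encodes necdin, a growth suppressor of postmitotic neurons, and was at 13411 and 1050, 12.8-fold lower. Peg12 was at least 3.19-fold lower (298 and 44.9). Magel2 was under the floor at 86.4 and at 142, at least 1.51-fold higher and thus not called. Mkrn3, a makorin ring finger gene, was at 114 and 220 as a mean of 2 probes that disagreed, one dim in both samples (75.8 and 66.6) and one 4.25-fold higher (170 and 724). The maternally expressed Ube3a, the ubiquitin ligase gene of Angelman syndrome, was at 649 and 403 and the phospholipid flippase gene Atp10a at 897 and 463, both under 2-fold (Atp10a was lower by 2-fold after intensity-dependent centring). Downstream of Snrpn the noncoding Snhg14 (81.7 and 32.8) and Ipw (87.2 and 77.8) were dim in both samples. Upstream, A230006K03Rik was just past 2-fold higher (476 and 953, a mean of 2 probes) and A330076H08Rik was dim. Of the 7 measured listed genes of the domain, Snrpn alone was called higher, and it was chosen with its difference in view.

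At Grb10 the neighbours lay on both sides. Cobl, an actin nucleator gene that is next to Grb10 and expressed from the maternal copy in some tissues, was at 242 and 7151, 29.5-fold higher, against the 24.9-fold lower Grb10. Ddc, the dopa decarboxylase gene on the other side, was at 312 and 286. Egfr, the next measured gene after Cobl and a receptor that GRB10 can bind, was 41.8-fold lower (4904 and 117). Fignl1 was at 1250 and 2361, and Ikzf1 and Fbxo48 were dim in both samples. The 2 adjacent genes Grb10 and Cobl thus lay far out on opposite sides.

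**Figure D2:**
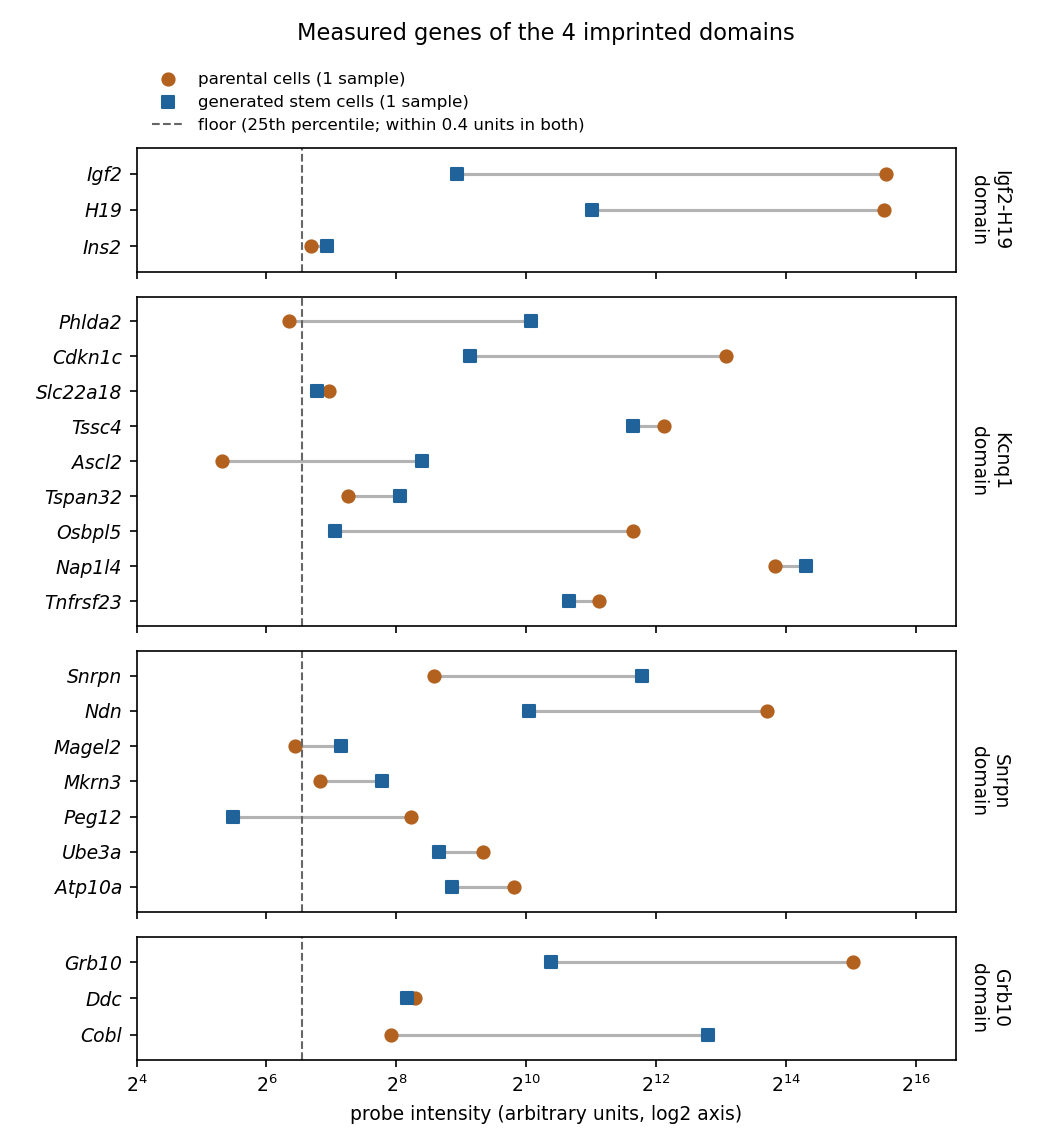
Probe intensity (log2 axis, arbitrary units) of every measured gene of the Igf2-H19, Kcnq1, Snrpn and Grb10 domains in the parental cells (circles) and the generated stem cells (squares), 1 sample each, with the floor as a dashed line. Phlda2 and Cdkn1c, Snrpn and Ndn, and Cobl and Grb10 run in opposite directions, whereas Igf2 and H19 are both lower in the generated stem cells.

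Over a list of 80 imprinted genes, 53 were measured and 52 were not dim. With the 4 members left out, 5 of 48 (10.4%) were higher and 13 (27.1%) were lower, beside 20.5% and 20.8% of all genes, and the median log2 difference was -0.29. Of the 21 remaining paternally expressed genes 3 were higher and 6 lower (median -0.15), and of the 27 maternally expressed genes 2 were higher and 7 lower (median -0.45). Gab1, an adaptor of growth factor receptors imprinted in the placenta, was 10.2-fold higher (281 and 2868), Usp29 2.94-fold (178 and 523) and Rasgrf1, a Ras exchange factor gene, 2.32-fold (145 and 337). Together with Cobl and Ascl2 these were all the higher genes beyond Phlda2 and Snrpn. The 2 probes of Gnas, which encodes the stimulatory G protein subunit, disagreed, one at least 3.25-fold higher (36.7 and 305) and one dim in both samples.

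The lower imprinted genes outside the 4 domains were led by Pon2, a paraoxonase gene, 10.8-fold lower (3154 and 291), and Sgce, which encodes epsilon-sarcoglycan, 9.44-fold lower (2734 and 290). Igf2r, the receptor that clears IGF2 from the cell surface and a maternally expressed growth restrainer, was 4.61-fold lower (11576 and 2513). Plagl1, a paternally expressed zinc finger factor known to activate other imprinted genes including Igf2 and H19, was 2.31-fold lower (13649 and 5907) and far above the floor in both samples. Ampd3 was 3.05-fold, Mest 2.68-fold, the noncoding Meg3 2.48-fold and Inpp5f 2.02-fold lower. After intensity-dependent centring Atp10a, Peg3 (293 and 149), H13 and Commd1 were also lower by 2-fold. The value of H13 averages 2 probes that disagreed, one 3.53-fold lower (372 and 105) and one under 2-fold (191 and 172).

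**Figure D3:**
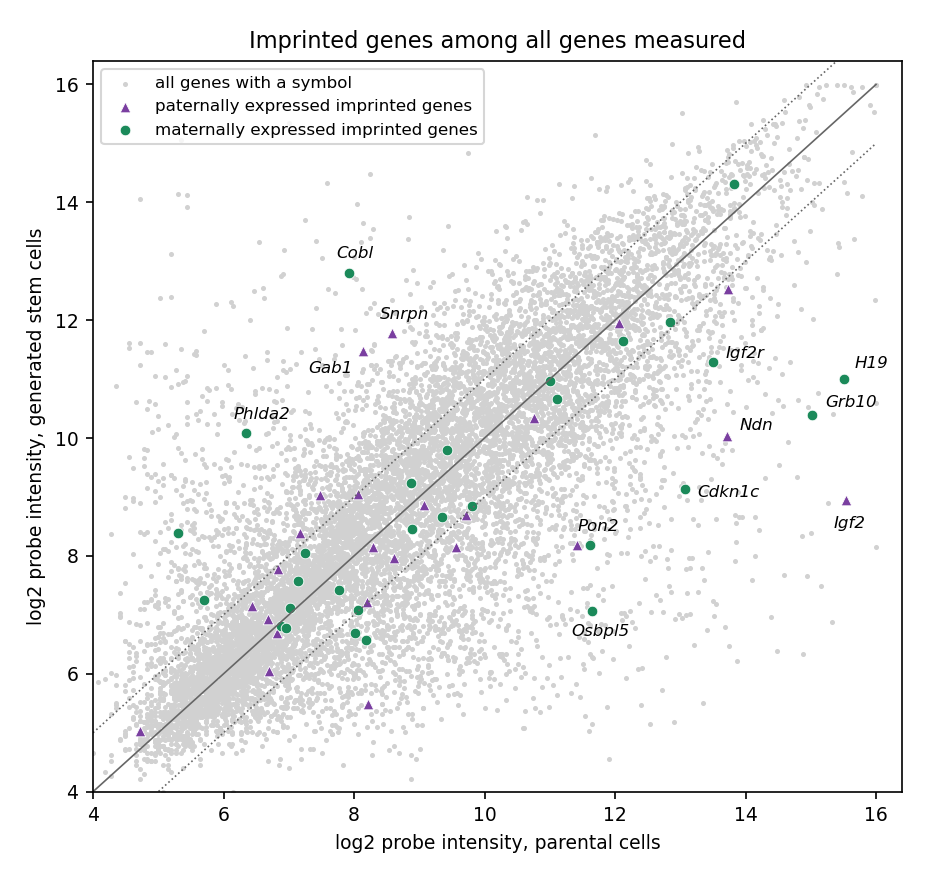
Log2 probe intensity in the generated stem cells against that in the parental cells for 11484 genes (grey), with paternally (triangles) and maternally (circles) expressed imprinted genes in colour, 1 sample per axis; the solid line marks equality and the dotted lines 2-fold. Igf2, H19 and Grb10 lie far below the line at the bright end of the parental axis, and Phlda2, Snrpn, Gab1 and Cobl above it.

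IGF2 acts through a pathway of receptors, secreted binding proteins and intracellular kinases, 31 of whose 55 listed genes were measured. Without Igf2, 6 of 30 (20.0%) were higher and 10 (33.3%) lower, beside 20.5% and 20.8% of all genes, with a median log2 difference of -0.30. No ligand or receptor gene was higher. Igf1r, the receptor through which IGF2 drives growth, was at 1254 and 210, 5.97-fold lower, and Igf2r 4.61-fold lower. The insulin receptor gene Insr was at 1329 and 863 and the orphan relative Insrr at 381 and 622, both under 2-fold. The ligand Igf2 and both IGF receptors were thus dimmer together.

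Binding proteins, which hold IGFs outside the cell, went both ways. Igfbp7, which binds IGFs weakly, was at 65303, close to the scanner ceiling, and at 285, a 229-fold lower value. That fold is a lower bound if the raw parental signal was saturated, which normalised values cannot show. Igfbp4 was 13.1-fold lower (16129 and 1231). Igfbp2 was 2.28-fold higher (1622 and 3694), and Igfals, which encodes the acid labile subunit of circulating IGF complexes, 7.73-fold higher (231 and 1786). Among genes of binding protein cleavage, the protease gene Pappa was at least 3.09-fold higher (81.7 and 290) and its inhibitor Stc2 3.78-fold lower (463 and 122), while Htra3, another protease gene, was at least 15.6-fold lower (1461 and 72.2).

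Inside the cell, 1 of 13 measured signalling genes (7.69%) was higher and 3 (23.1%) were lower, the latter near the 20.8% of all genes (20.5% of which were higher). The kinase gene Akt1 was 10.2-fold lower (5659 and 553), the receptor substrate gene Irs1 8.75-fold lower (2618 and 299) and Irs2 at least 2.20-fold lower (206 and 77.8). Tsc2, a brake on the mTOR kinase, was 2.69-fold higher (2956 and 7944). Of the mTOR arm, Rptor (6495 and 9224), Rheb (380 and 596) and the translation repressor gene Eif4ebp1 (17208 and 33512) stayed under 2-fold. The probes of Shc1, Pdpk1 and Pik3ca disagreed. For each of these 3 genes 1 probe was 2-fold or more lower and the mean was not, except that the mean of Pdpk1 (1002 and 542) reached 2-fold lower after intensity-dependent centring.

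Regulators known to act on Igf2 or its RNA lay on both sides. Igf2bp1, an mRNA binding protein of fetal cells that binds Igf2 mRNA, was at 170 and 4711, 27.6-fold higher. Lin28b, a repressor of let-7 miRNAs, was at least 22.5-fold higher (34.6 and 2108). Hmga2, a let-7 target and an activator of Igf2bp2, was 7.59-fold lower (10246 and 1349). Igf2bp3 (4051 and 5386) and E2f3, a transcription factor reported to act on the Igf2 promoter (3897 and 3736), differed by less than 2-fold.

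**Figure D4:**
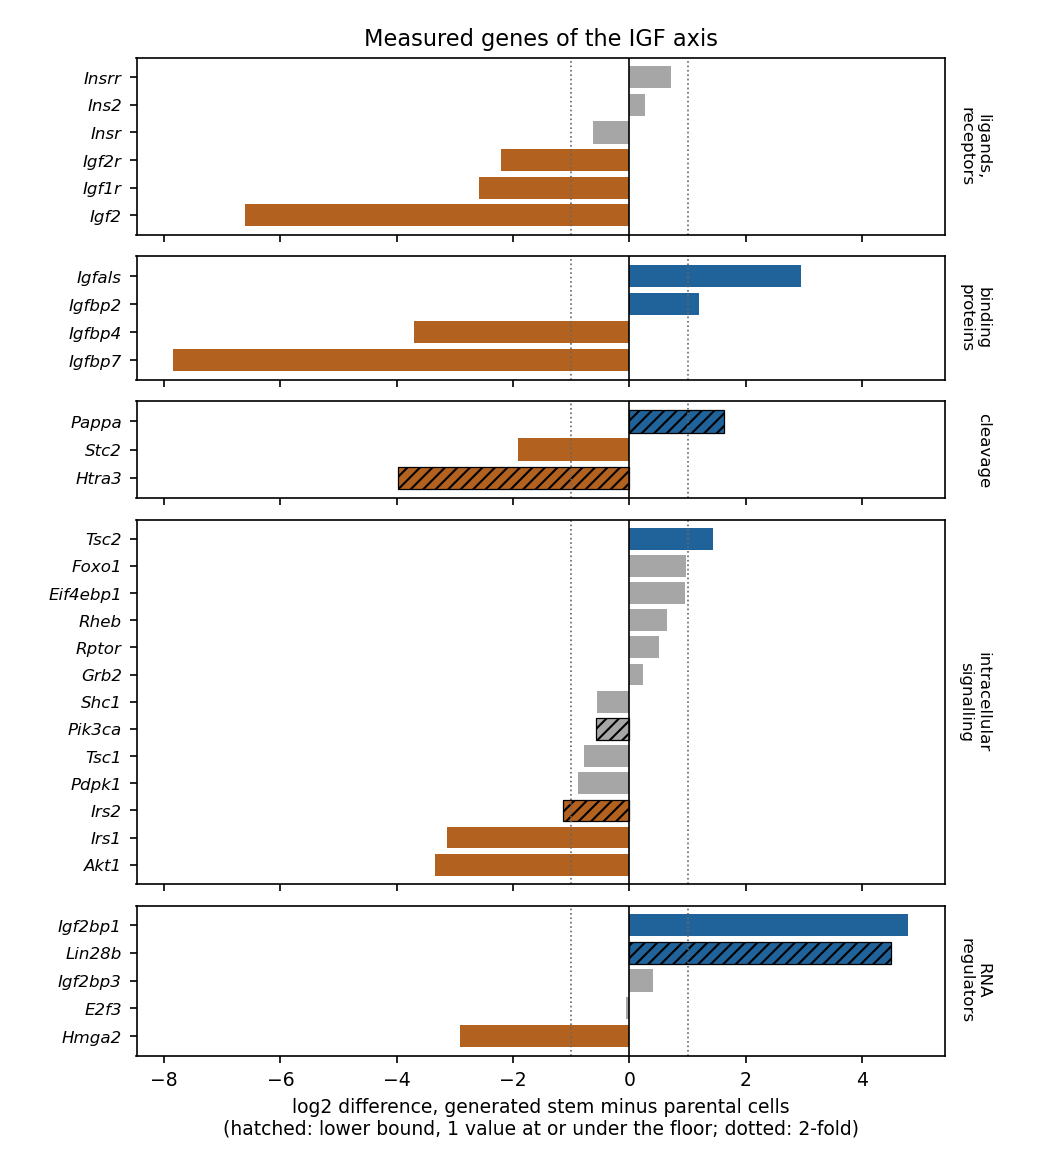
Log2 difference (generated minus parental cells, 1 sample each) of the 31 measured IGF axis genes by role, with orange bars for genes 2-fold or more lower, blue for higher and grey for the rest; hatched bars are lower bounds. Igf2, Igf1r, Igf2r, Igfbp7, Igfbp4, Irs1 and Akt1 reach to the left and Igf2bp1, Lin28b and Igfals to the right. The bar of Igfbp7 is also a lower bound if its raw parental signal, close to the ceiling as normalised, was saturated.

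GRB10 belongs to a family of adaptors with GRB7 and GRB14, and its paralog Grb7 went the opposite way. Its intensities were 26.4, under the floor, and 3135, at least 33.4-fold higher. Among partners, Gigyf1, whose protein binds GRB10, was 6-fold higher (799 and 4793), and its paralog Gigyf2 was at 759 and 665. The ubiquitin ligase gene Nedd4, whose product binds GRB10 and acts on the IGF1 receptor, was 4.57-fold lower (44420 and 9719). The receptor gene Kit was 7.52-fold higher (98.0 and 737). Of the 8 measured genes of family and partners other than Grb10, 3 (37.5%) were higher and 3 (37.5%) lower, beside 20.5% and 20.8% of all genes. In the PHLDA family too, the paralog was on the opposite side. Phlda1, a paralog of Phlda2, was at 2692 and 471, 5.71-fold lower.

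SmN, the product of Snrpn, takes the place of SmB in the Sm ring around the spliceosomal RNAs. Snrpb, which encodes SmB and is closely similar to Snrpn in sequence, was at 4459 and 6655, under 2-fold. How far the Snrpn probe also bound Snrpb RNA was not tested. Of the other measured Sm genes, Snrpd3 (5842 and 13411), Snrpe (9458 and 21797) and Snrpg (11468 and 25631) were higher, with log2 differences of 1.20, 1.20 and 1.16, although all 3 were under 2-fold after intensity-dependent centring. These were 3 of 6 (50%), with none lower, beside 20.5% and 20.8% of all genes. Snrpd2 was at 7566 and 9051, and the mean of Snrpd1 (5171 and 5758) covered 2 probes that disagreed. Snrpn, at 9.16-fold, had a difference beyond that of each of the other 6, but it alone was chosen with its difference in view. None of the 4 U1 and U2 protein genes above the floor, Snrpa, Snrpc, Snrpa1 and Snrpb2, differed by 2-fold on the mean of their probes, though 1 of the 2 probes of Snrpa was 2.94-fold higher, and Snrnp70 was dim in both samples.

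Of 7 measured genes that load the Sm ring, 3 (42.9%) were higher and 1 (14.3%) lower, beside 20.5% and 20.8% of all genes. Prmt5, the arginine methyltransferase that modifies Sm proteins, was 4.45-fold higher (4700 and 20932). Gemin2 and Gemin5, of the SMN complex, were 3.36-fold (469 and 1577) and 2.80-fold (694 and 1945) higher, and Smn1 was at 9103 and 16931. Strap was 2.77-fold lower (10042 and 3630).

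Imprints are kept through cell division by a known set of factors. These were listed together with other genes of DNA methylation, among them de novo ones, and of chromatin. Of the 22 listed genes 14 were measured. Of these 9 (64.3%) were higher and 1 (7.14%) lower, beside 20.5% and 20.8% of all genes, and Kdm1b, a histone demethylase gene, joined the lower ones after intensity-dependent centring (379 and 200.4). Their median log2 difference was 1.53, against 0.10 for all genes. Trim28, the corepressor that ZFP57 brings to methylated control regions, was 4.34-fold higher (5966 and 25873). The maintenance methyltransferase gene Dnmt1 was 3.40-fold higher (607 and 2068) and its cofactor Uhrf1 4.64-fold higher (4349 and 20184), beside the chromatin remodeller gene Hells (8.31-fold, 1299 and 10798) and the Polycomb genes Ezh2 (2.46-fold) and Eed (3.42-fold). The de novo methylation genes Dnmt3b and Dnmt3l were higher as well, by 58.6-fold and at least 57.6-fold. Arid4b was 2.18-fold higher, but under 2-fold after intensity-dependent centring. Ctcf, the insulator protein of the Igf2 and H19 control region, was at 1723 and 2894, the zinc finger gene Zfp445 at 836 and 837 and Tet3 at 286 and 251. Smchd1, which represses clustered imprinted genes and the inactive X chromosome, was the lower one before that centring, 2.20-fold (351 and 159). Zfp57 and Dppa3 were not analysed here.

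**Figure D5:**
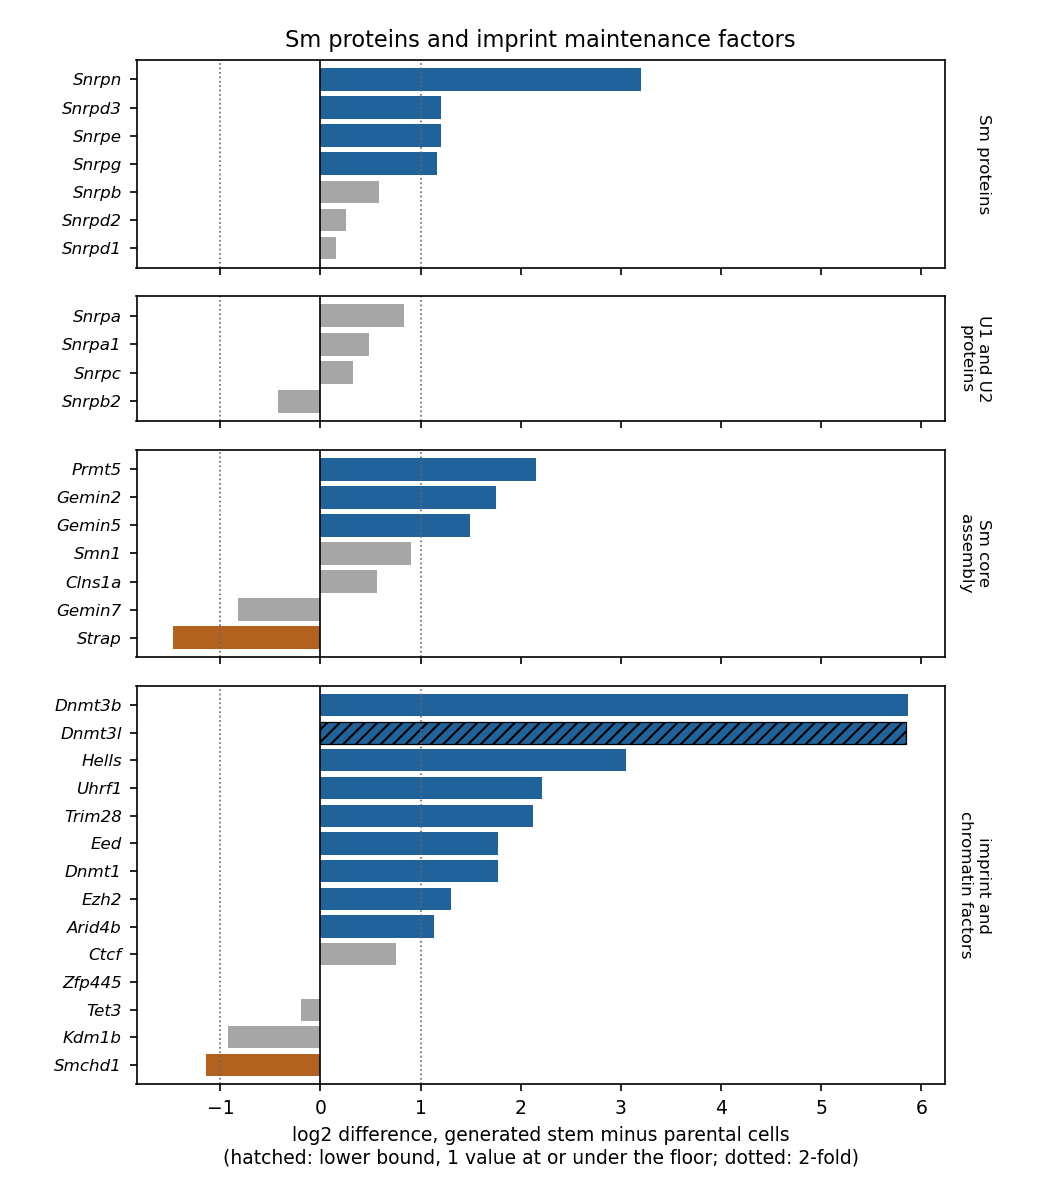
Log2 difference (generated minus parental cells, 1 sample each) of measured genes that were not dim. Panels hold Sm proteins, U1 and U2 proteins, Sm assembly genes, and imprint and chromatin factors. Blue bars are genes 2-fold or more higher, orange lower, grey the rest, and hatching marks lower bounds. Snrpn, chosen with its difference in view, has the longest bar of the Sm proteins, at 3.20. Among the imprint and chromatin factors the de novo methylation genes Dnmt3b and Dnmt3l have the longest bars. The bars of Snrpd3, Snrpe and Snrpg, at 1.16 to 1.20, dropped below the 2-fold line after intensity-dependent centring.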

How the data were processed

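Total RNA of 2 mouse samples was extracted with Trizol and RNeasy columns, amplified, labelled with Cy5 for the OneArray v2 of Phalanx, an array of mouse genes, per the labels' protocols. The values deposited by the authors are probe intensities on a linear scale. Background correction and normalisation: not given in the sources used here. Near-equal quantiles of both columns mean that a difference in total signal would not show. Of 13989 probes, 12380 had 1 gene symbol in the platform annotation, updated through Entrez identifiers with RefSeq (GRCm38.p6, names and gene order only), and none had several. Intensities were brought to log2 and probes averaged per gene (11484 genes, 1718 dim in both samples). There was 1 sample per group, hence no test and no p-value; the precision is limited by the number of arrays.

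The members and the 24 gene lists (253 genes, 153 measured) were chosen with earlier results of these data known. Genes named were all measured genes of the members' domains, the PHLDA, Sm and GRB10 lists and the IGF ligands, receptors and binding proteins, up to 4 each way of other lists, the 3 nearest genes by intensity and the 3 nearest neighbours on each side. Genes under 2-fold, further called imprinted, maintenance and chromatin genes, probes that disagreed and markers were added after values were seen.

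Alternatives were median centring, quantile normalisation, intensity-dependent centring by lowess (span 0.3), the brightest probe, an offset of 50, floors at the 10th percentile, the median or none, a 4-fold rule and, added after seeing the data, counting measured values under the floor. For the log2 differences of the members, values under the floor were also raised to it. The computation was tested on simulated data. Python 3.11.15, numpy 2.4.6, pandas 2.3.3, statsmodels 0.14.6 and matplotlib 3.10.9 were used.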

Additional observations from a re-analysis of the deposited data

How the results depend on the processing

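All 4 members kept their direction under the 6 alternatives run for them. They were chosen with large differences in view, so rescaling could hardly reverse them, and the kept direction is no support. Raising values under the floor to it changed only Phlda2, the only member with such a value. The log2 difference ranged from -6.79 to -6.46 for Igf2, from -4.84 to -4.59 for Grb10, from 3.11 to 3.73 for Phlda2 and from 3.03 to 3.20 for Snrpn. Each member had 1 probe, so the brightest probe was the same probe and no second probe could be compared. Under the 4-fold rule 4 imprinted genes were higher and 9 lower, against 7 and 15 at 2-fold with the members counted, 3 IGF axis genes were higher against 6, and 617 of all genes were higher and 894 lower against 2000 and 2034, since the rule is stricter. With the floor at the median, 4 imprinted genes were higher. The other alternatives left these counts within 1.5 times. Intensity-dependent centring moved the median log2 difference of all genes from 0.10 to -0.01. No paired analysis was possible because each group had 1 sample. Probes near the floor, such as those of Ins2, Mir483 and Igf2os, limit what a fall could show.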
